A study of Mus musculus with 12 samples.

Results

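The subject is a set of non-coding RNAs (ncRNAs) that the authors list as promoter-associated. They were recovered with biotinylated Mirlet7d and had enough reads in the input library for the input to be measured. The authors' deposited list of promoter-associated candidates from this capture holds 2432 NONCODE entries, each assigned to a gene and marked as within 2.5 kb of its transcription start site (TSS). An entry was kept when its input value was not exactly 1 and its input RPKM (reads scaled to entry length in kilobases and to library size) multiplied by its length in kilobases was at least 1, which corresponds to about 10 input reads. This left 1247 entries at 860 genes, of 6208 ncRNA candidates in all. Their spans run from 204 to 593730 bases (median 3255), so the longer ones reach beyond the promoter. Among the 1185 entries not kept, 457 had an input of exactly 1 and 728 had a measured input below the threshold. The values that chose the 1247 entries are the input RPKM, the length and the authors' listing, whose lowest fold was 2.5, so levels and folds are given below as a description with no test.

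All libraries came from MLE-12, a mouse cell line of lung epithelial origin that is a single established line. Cells received 25 nM of biotinylated Mirlet7d and were harvested after 48 h, and RNA bound to it on streptavidin beads was sequenced as 1 pull-down library beside 1 input library. A separate library, ChIRP-seq (capture of chromatin through probes against an RNA), used 150 pmol of probes against Mirlet7d, and its peak list is the readout that the choice of members did not use. No genetic change is named in the labels for these samples. No replicate of either library and no capture with the random control microRNA were analysed here, so no error between replicates exists, and each fold compares 2 libraries rather than 2 conditions. The promoter-associated list holds 0 of 14 lung epithelial and 1 of 7 immune marker genes, but it is a selected list and does not test the cell type.

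MicroRNAs of the let-7 family are short RNAs that are best known for pairing, through the bases near their 5′ end called the seed, with messenger RNAs in the cytoplasm and lowering their output. Some mature microRNAs are also found in the nucleus. Many mammalian promoters give rise to ncRNAs besides the messenger RNA, often in the opposite direction and often short-lived because the nuclear exosome degrades them. The series is named for MiCEE, a complex of ncRNA and protein, and the capture was made to find nuclear RNAs that bind Mirlet7d.

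Both mature arms of the microRNA are shown because the 5p arm carries the let-7 seed that was searched in the promoters of the member genes. Sequences are from RefSeq (GRCm38.p6), written 5′ to 3′, and the capitals mark bases 2 to 8.
mmu-let-7d-5p: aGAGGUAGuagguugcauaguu
mmu-let-7d-3p: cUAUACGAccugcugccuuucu
The 5p seed as DNA is GAGGTAG, and the letters that pair with it are CTACCTC. Of the 860 member genes, 674 had a promoter (250 bases before to 50 after the start) in the RefSeq table, which is 78.4% and under the 80% set for a check of sequence features, so that check is void over all member genes. Among the 730 protein-coding member genes 606 had one (83.0%), and the values that follow are for these. A match to the 7 letters on either strand was present at 19 of 606 genes, or 3.14% (95% exact binomial interval 1.90 to 4.85%). The share over all 17492 protein-coding genes of the table was 4.36%, and over 522 protein-coding genes of the other promoter-associated candidates it was 5.75% (3.91 to 8.10%). The interval of the members' share thus held the share of all promoters. Windows around the match are shown for the 6 genes whose entries had the highest lower bounds of the fold, with the match in capitals and written on the gene's strand, so that a match on the other strand reads as the seed itself. Cd151 (chr7:141467175-141467203), Ndrg3 (chr2:156992280-156992308), Ncoa5 (chr2:165034820-165034848), R3hdm1 (chr1:128103253-128103281), Ssu72 (chr4:155704732-155704760) and Usp16 (chr16:87454801-87454829) all hold it upstream of the start.
Cd151: ccacctgggttCTACCTCtggtctagctc
Ndrg3: accatgagggaGAGGTAGgtgtgcagaga
Ncoa5: gccctctgcccCTACCTCcacactccgcc
R3hdm1: acctagcgtatGAGGTAGgctgctttccg
Ssu72: tgaagagcccgCTACCTCacccatatttt
Usp16: cgtatttaagaGAGGTAGccatgaaggac
The entry at Cd151, a tetraspanin, stood at 1.649 RPKM in the input and 18.6 RPKM in the pull-down, a fold of 11.3 (95% interval 5.82 to 25.2), and other entries of this gene went down to 2.70-fold. The entry at Ndrg3 went from 0.057 to 0.667 RPKM, a fold of 11.7 (5.27 to 32.9), beside 2.86-fold and 2.62-fold in longer entries. The entries at Ncoa5 (7.33-fold), R3hdm1 (8.39-fold), Ssu72 (7.35-fold) and Usp16 (6.47-fold) were lower. A match is a description of letters in DNA and does not show pairing with the RNA.

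In base composition, the 606 promoters of protein-coding member genes had a median GC share of 61.0% (middle 50% of genes 55.3 to 67.0%) and a median of 21.5 CpG pairs in 300 bases. Promoters of the other promoter-associated candidates had 60.7% and 21 pairs, close to the members. All protein-coding genes of the table had 56.3% and 13 pairs, so the promoters of entries kept and not kept were both above that.

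Input levels of the members ran from 0.004 through a median of 1.321 to 862.819 RPKM, and pull-down levels from 0.016 through 5.813 to 2596.18 RPKM. Multiplied by length, these RPKM values fell on whole multiples of 1 step, and all 3889 input and 4832 pull-down values precise enough to judge came out whole to within 0.15 reads. The members therefore held 10 to 12526 input reads (median 40) and 40 to 59293 pull-down reads (median 293). Of the 1202 members with an exact read number, 76.5% had an even number of input reads, so intervals were computed with reads taken as pairs. They are exact 95% intervals that cover counting error only, and copies made by amplification cannot be told from separate molecules. A higher level in the pull-down cannot tell more bound RNA per cell from binding in more cells.

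The fold, pull-down RPKM over input RPKM, had a lowest value of 2.50, a median of 3.75, quartiles of 2.92 and 5.56, and a highest value of 32.4. Most members lay low in this range, with 857 (68.7%) under 5-fold. At 10-fold or more stood 101 of 1247 (8.10%, exact binomial 6.65 to 9.75%), against 25.0% of all promoter-associated candidates and 24.3% of all ncRNA candidates. The rule used the input, so nothing is read from that contrast. The median fold was 5.12 over all promoter-associated candidates and 8.18 over those not kept. The interval of the fold lay above 2.5 for 577 of the 1231 members with recovered reads (46.9%), against 52.4% of the 1920 promoter-associated candidates with recovered reads. For 2 members the interval reached 1 or below.

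**Figure D1:**
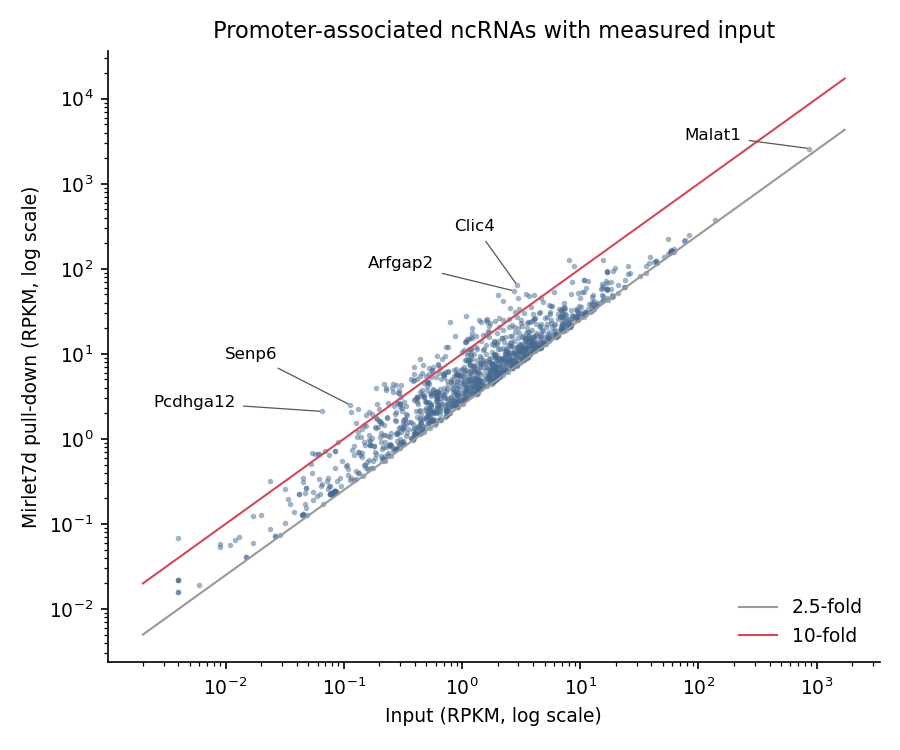
Input against pull-down level of the 1247 members, both in RPKM on log scales; each point is 1 entry, and the lines mark 2.5-fold and 10-fold. Members span 0.004 to 862.819 RPKM in the input, and Malat1 at the upper right lies near the lower line while Pcdhga12, Senp6, Arfgap2 and Clic4 lie above the upper one.

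The fold was lower where the input held more reads. Among 327 members with 10 to 20 input reads the median fold was 5.17 and 63 (19.3%) reached 10-fold. Among 405 members with 21 to 50 reads the median was 4.17 and 33 reached 10-fold. Among 239 with 51 to 100 reads it was 3.40 with 5 at 10-fold, and among 276 with more than 100 reads it was 2.98 with 0 at 10-fold and a highest value of 8.15. The input reads are the divisor of the fold and were part of the rule, so this is a description of how the list is built. Length moved with the fold less: the median was 4.01 for 261 members under 1.5 kb, 3.73 for 526 of 1.5 to 5 kb and 3.66 for 460 longer ones. At the threshold itself, the 3 members just inside were at Gm19299 (5.74-fold), Halr1 (3.69-fold) and Cep97 (7.38-fold), and the 3 entries just outside were at Mir6351 (6-fold), Man2c1 (18.5-fold) and Zfp644 (13.0-fold).

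**Figure D2:**
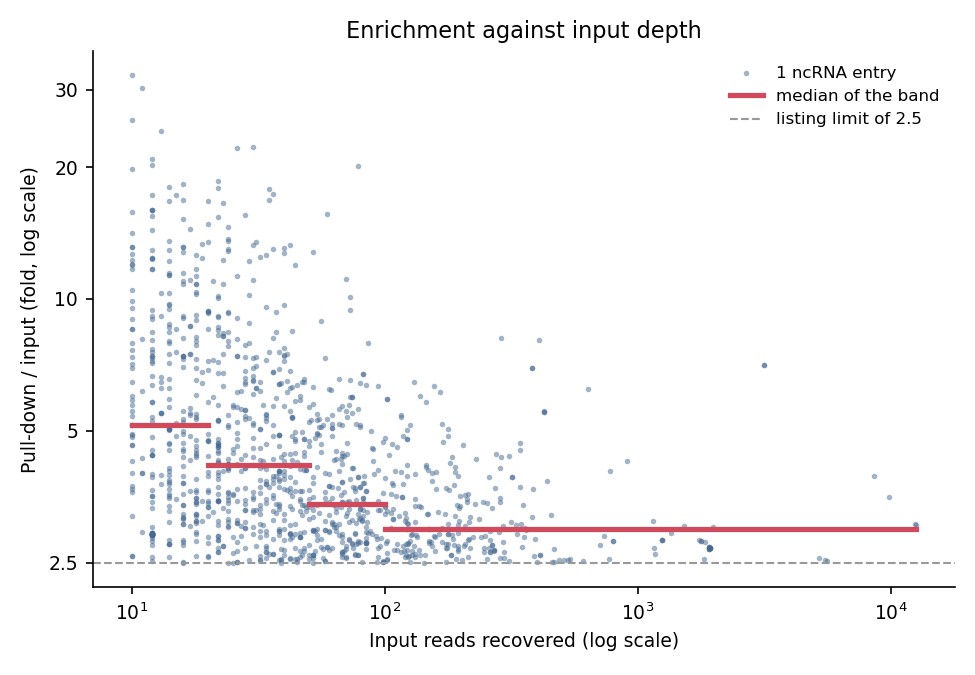
Fold of pull-down over input (log scale) against recovered input reads (log scale), 1 point per entry; horizontal bars are the medians of 4 bands of input reads and the dashed line is the listing limit of 2.5. The band medians step down from 5.17 to 2.98, and no entry above 100 input reads lies above 8.15.

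The largest folds rested on few input reads. The highest was at Pcdhga12, a clustered protocadherin, with 0.065 RPKM in the input and 2.108 RPKM in the pull-down, a fold of 32.4 from 10 and 504 reads (interval 13.8 to 101). At Mir6897 a 1443-base entry went from 0.789 to 23.892 RPKM, 30.3-fold (12.6 to 76.3), while a 4367-base entry of that gene stood at 2.75-fold (1.13 to 8.31). At Mfsd10, a transporter of the major facilitator family, a 957-base entry went from 1.082 to 27.787 RPKM, 25.7-fold (10.8 to 80.0). The intervals of these 3 overlap widely, so their order is not resolved. At Ube2c, the ubiquitin-conjugating enzyme of the anaphase-promoting complex, levels were 2.033 and 49.252 RPKM, 24.2-fold (10.8 to 56.6) on 13 input reads, while 3 longer entries of a neighbouring locus with 270 input reads stood at 2.67-fold (2.21 to 3.24). At Senp6, a SUMO protease, they were 0.113 and 2.512 RPKM, 22.2-fold (13.4 to 40.2), and at Clic4, an intracellular chloride channel protein, 2.922 and 64.637 RPKM, 22.1-fold (12.8 to 41.9). Nae1, a subunit of the enzyme that activates NEDD8, had 20.9-fold, A230050P20Rik 20.3-fold and 1110032A03Rik 19.8-fold.

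The best measured of the high folds was at Arfgap2, which activates GTP hydrolysis by the small GTPase ARF1 in vesicle traffic. Its 2946-base entry (mm9 chr2:91102474-91105420) rose from 2.740 RPKM (78 reads) to 55.134 RPKM (2431 reads), 20.1-fold with an interval of 14.6 to 28.4. Its lower bound was the highest of all members. A lower bound of at least 10 was found for 12 of the 1231 members with recovered reads. The same share was not computed over all promoter-associated candidates, so nothing is read from this count. The 12 include Dcaf10, an adaptor of a cullin ubiquitin ligase (0.131 to 2.278 RPKM, 17.4-fold, 10.9 to 29.5), and Dnajc21, a J-domain co-chaperone (0.390 to 6.934 RPKM, 17.8-fold, 10.8 to 29.5). They also include Mat2a, which makes S-adenosylmethionine, where a 756-base entry (mm9 chr6:72388794-72389550) went from 8.078 to 126.292 RPKM, 15.6-fold (10.7 to 23.0).

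The entries with the most reads had low folds and tight intervals. At Pisd-ps1, a transcribed pseudogene on chromosome 11, 12526 input and 59293 pull-down reads gave 3.06-fold (2.97 to 3.14). At Sfi1, a centrosome gene whose span overlaps it, the fold was 3.53 (3.43 to 3.64) in one entry and 3.94 (3.82 to 4.07) in the other. These spans overlap and share reads, so they are not separate measurements. Pisd-ps1 resembles its parent gene in sequence, and how reads that fit several places were counted is not given in the sources used here. The nuclear lncRNA Malat1, covered by a 238-base entry, had the highest levels of all members, 862.819 and 2596.18 RPKM, at 3.01-fold (2.81 to 3.23). At Mrpl33, a mitochondrial ribosomal protein gene, 3 overlapping entries with 5180 to 5576 input reads lay at 2.52, 2.54 and 2.56. The exception was Orc5, a subunit of the origin recognition complex: an entry of 150785 bases went from 2.168 RPKM (3158 reads) to 15.347 RPKM (34635 reads), 7.08-fold (6.72 to 7.46).

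**Figure D3:**
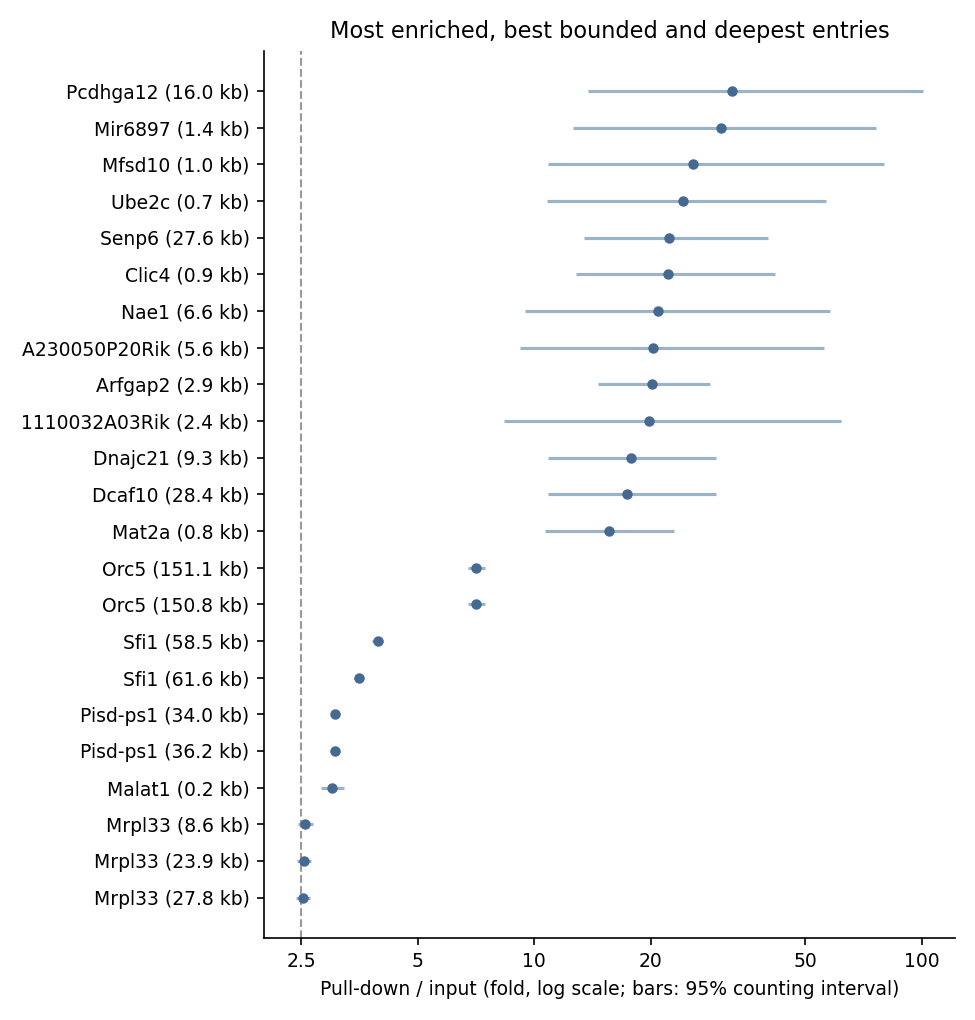
Fold (log scale) with its 95% counting interval for the entries with the highest folds, the highest lower bounds and the most input reads; entry length stands in parentheses and the dashed line marks 2.5. The intervals of the 10 highest folds span wide ranges, such as 13.8 to 101 at Pcdhga12, while Pisd-ps1, Sfi1 and Mrpl33 have intervals barely wider than their points.

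By RefSeq class, 730 of the 860 genes (84.9%) were protein-coding, 83 were lncRNA genes, 21 microRNA genes, 12 transcribed pseudogenes, 10 snoRNA genes and 3 antisense genes, and 1 was not matched. The median fold was 3.89 over 978 entries at protein-coding genes, 3.33 over 192 at lncRNA genes, 4.86 over 33 at microRNA genes and 3.34 over 22 at snoRNA genes. Overlapping entries share reads, such as the 20 entries of Gas5 among those at lncRNA genes, so these medians do not weigh genes equally. The other promoter-associated candidates were protein-coding to 84.7%. The share of protein-coding genes was thus close in entries kept and not kept.

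Hosts of snoRNAs and known lncRNA genes formed the group with the most entries per gene. All 6 genes of this list of 26 that were among the promoter-associated candidates were members, with 35 entries. The median fold of these entries was 3.01, against 3.75 for all members. Of the 35 entries 20 are overlapping Gas5 entries that share reads, so this median mostly reflects Gas5 and not the group. Gas5, a host of several snoRNAs, had 20 entries over 1 locus, at 2.69-fold to 4.05-fold and with 100 to 1936 input reads. Snhg5 had 8 entries at 6.48-fold to 12.9-fold, the highest being 2.045 to 26.285 RPKM (7.22 to 25.2). Snhg8 had 15.9-fold (7.14 to 44.1) in a 768-base entry with 12 input reads and 6.12-fold in the 1871-base entry around it. Mir17hg, the host of the miR-17 cluster, stood at 3.59-fold (2.92 to 4.45) and Snhg3 at 3.48-fold (2.44 to 4.98). Of the members named after snoRNAs, 22 entries at 10 genes had a median of 3.34. They ranged from Snord1b at 2.51-fold to Snora64 at 16.8-fold (1.209 to 20.255 RPKM), which also had entries at 12.3-fold and 5.00-fold, and Snord19 at 16.5-fold (1.438 to 23.778 RPKM). The spans of these entries run from 470 to 3789 bases, longer than a snoRNA. The values are those of the whole span, in which reads of a snoRNA and of its host were not separated.

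Counts of member genes in fixed lists are read against 3.33% of all 21900 protein-coding RefSeq genes with a member, and 6.3% that are promoter-associated candidates. The lists hold at most 38 genes, so a count of a few genes is not a result about the list. Of 27 Polycomb and exosome genes 4 were promoter-associated candidates and 3 were members. These were Rbbp4, a histone-binding subunit, with 1.141 and 11.481 RPKM, 10.1-fold (5.50 to 20.6), Ezh1, a histone H3 methyltransferase, with 7.84-fold (4.01 to 17.7), and Suz12, a core Polycomb subunit, with 5.61-fold (3.12 to 10.3). No exosome gene was among the members. Of 29 genes of RNA polymerase II pausing and elongation 5 were members, among them Paf1 at 11.7-fold (5.22 to 32.7), Supt16 at 4.96-fold, Med26 at 4.52-fold and 3.39-fold, and Aff1 at 3.23-fold. Of 36 chromatin modifier genes 6 were members with a median of 2.94, from Kdm2a at 2.51-fold to Kmt2d, a histone H3 lysine 4 methyltransferase, at 6.67-fold. Of 35 ribosome biogenesis genes 2 were members: Nhp2, a core protein of box H/ACA particles, at 10.1-fold (7.13 to 14.3) and Polr1c at 2.94-fold. Of 19 microRNA processing genes 0 were members and 1 was a candidate that was not kept. Of 32 let-7 target genes 0 were promoter-associated candidates, and a list of this size cannot set that count apart from the 6.3% of all genes.

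Among signalling and growth genes, 3 of 28 TGF-beta and BMP genes were members. The entry at Acvr2a, a type II activin receptor, rose from 1.183 to 15.685 RPKM, 13.3-fold (7.91 to 24.0). The entries at Smad7, an inhibitor of the pathway, stood at 4.08-fold and 3.48-fold, and that at Smad4, the shared signal carrier, at 2.56-fold (1.76 to 3.83). The intervals of the fold at Acvr2a and Smad4 did not overlap. Dvl3 was the member of 28 WNT genes (6.88-fold), and Bub1, a spindle checkpoint kinase, of 38 cell cycle genes (11.5-fold, 5.39 to 29.0). Of 34 immediate early and stress genes 3 were members, Nfkb2, Mafg and Fosl2 (4.29-fold), all between 3.93-fold and 5.21-fold. Of 38 splicing genes Srsf1 was the member, with 3 entries at 2.78-fold to 4.20-fold. Of the 7 immune, 5 endothelial and 5 mesenchymal marker genes 0 were members. Among the promoter-associated candidates was 1 of the immune markers, which was not kept, and 0 of the endothelial and mesenchymal ones.

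Families were also picked by the start of the gene name, and their counts at 10-fold are read against 8.10% of all members. The 10 mitochondrial ribosomal protein genes had 16 entries between 2.52-fold and 4.19-fold, with 0 at 10-fold. The 25 zinc finger genes of the Zfp series had 35 entries with a highest value of 7.31, also 0 at 10-fold. Among names that start with Rpl or Rps, Rps20 stood apart at 18.5-fold (2.243 to 41.602 RPKM, interval 10.2 to 37.5) and 15.4-fold, followed by Rpl21 at 9.33-fold, while Rpl36a stood at 2.51-fold. Rps6kb2, caught by the same letters, is a kinase. Ribosomal protein genes have near-identical copies in the genome, so these values are uncertain. Among 6 respiratory chain names, Cox7c stood at 13.5-fold and Atp5l at 10.2-fold, Atp5sl had entries at 13.1-fold and 2.82-fold, and Ndufa7, Cox8b and Cox11 lay between 2.78-fold and 3.25-fold. Eif4b, a helper of the translation initiation helicase, had 14.6-fold (8.24 to 28.7), while Eif4a1, the helicase itself, had 2.90-fold (2.45 to 3.45). The 6 proteasome genes lay between 2.83-fold and 6.41-fold. Of 14 solute carrier genes 1 had an entry at 10-fold, against 9.88% of all member genes, and this was Slc25a14, a mitochondrial carrier, at 12.9-fold.

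Of the 22 genes with a microRNA name, 2 had an entry at 10-fold, near the 9.88% of all member genes. These were 1 entry each of Mir6897 (30.3-fold) and Mir674 (10.4-fold). Mir1982 had 426 input and 3646 pull-down reads in a 2602-base entry, 5.52-fold (4.79 to 6.40). Mir6516, with 122 to 380 input reads, stood between 3.19-fold and 5.03-fold. These entries are long transcripts assigned to the microRNA gene and not the mature microRNAs.

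Many entries cover the same ground. The 1247 members fall into 875 loci of overlapping spans, of which 659 hold 1 member and 216 hold the other 588, up to 21 in 1 locus. The 21 entries at 4933440J02Rik all rest on the same 12 input and 54 pull-down reads (2.89-fold to 2.92-fold) and are a single measurement. In 510 pairs 1 member lay inside another, 187 of them with identical reads, and in 0 pairs did the outer entry have fewer input reads than the inner one. In 1 pair, at Mir6372, the outer entry had fewer pull-down reads, 640 against 646. The levels of these long entries, 0.072 and 0.073 RPKM, are rounded too coarsely to order those numbers. Reads were therefore taken as counted over the whole span, introns included. Reads of the flank, the part of the outer span outside the inner one, are the outer reads minus the inner reads. This difference can include reads that cross the edge of the inner entry. At Gas5, for instance, a flank of 6 bases was given 29 input and 80 pull-down reads. Flank folds below are those of reads outside the inner count, not of the flank's bases alone. In shared loci the ratio of the highest to the lowest fold had a median of 1.16 and exceeded 2 in 32 loci. Overlapping entries share reads and all passed the listing limit, so close folds are not agreement between separate measurements.

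In the loci where it could be computed, the flank mostly had a lower fold than the inner entry. There were 70 loci whose flank held at least 10 input reads, and in each the pair with the most flank input reads was taken. The median fold was 4.32 for the inner entries, 3.32 for the outer ones and 2.82 for the flanks, and the inner value was the higher in 53 of 70. The intervals did not overlap in 22 loci with the inner entry higher and in 1 with the flank higher. Taking the pair with the fewest flank input reads instead, a choice added after the data were seen, left 53 loci with the inner entry higher and gave 21 and 4 loci with intervals apart. Over all 213 pairs, which share reads, the flank was higher with intervals apart in 6 pairs at 5 loci and the inner entry in 78 pairs at 28 loci. Inner and outer entries are both listed for a fold of at least 2.5 and the flank was under no such limit, so the difference is a description. In 30 loci the flank lay under 2.5, in 12 with its whole interval, and in 7 it lay under 1, in 3 with its whole interval.

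Hnrnpa0, which encodes an RNA-binding protein of the hnRNP family, shows the pattern at the scale of a single gene. The inner entry of 982 bases (mm9 chr13:58227241-58228223) had 24 input and 509 pull-down reads, 13.7-fold (7.72 to 26.9). The outer entry runs 208 bases further and had 126 and 548 reads, 2.81-fold. The reads counted in the outer entry but not in the inner one were 102 in the input and 39 in the pull-down. Their fold was 0.247 (0.143 to 0.432), lower in the pull-down than in the input. Some of them may cross the edge of the inner entry, so this is not a fold of the 208 bases alone. At Mfsd10 the 957-base entry (25.7-fold) lies in a 2015-base entry whose flank held 137 and 337 reads, 1.59-fold (1.19 to 2.12). Another inner entry of the same span went the other way, with 2.58-fold (1.96 to 3.44) inside and 8.91-fold (4.105 to 19.95) in its 879-base flank. At Cflar, an inhibitor of death receptor signalling, the inner entry had 7.42-fold (4.23 to 14.3) and the 432-base flank 0.555-fold (0.305 to 1.05). At C230035I16Rik the values were 7.86-fold and 0.387-fold (0.214 to 0.684). At Hnrnpa0, Cflar and C230035I16Rik, the inner entry thus had a fold of at least 7.42. The remaining reads of the same outer span had a fold of at most 0.555.

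Other loci showed steps of several sizes. Rpl34 had 5.34-fold (3.34 to 8.55) inside and 0.929-fold (0.590 to 1.51) in the flank. At Hgs, which sorts ubiquitinated cargo at endosomes, a 1653-base inner entry had 9.18-fold (4.69 to 20.5) and the flank 2.28-fold (1.80 to 2.93). A 1950-base inner entry of the same outer span had 12.5-fold (7.58 to 22.2) and its flank 1.04-fold (0.779 to 1.38). At Rabggtb, a geranylgeranyl transferase subunit, nested pairs went both ways. The shortest entry had 6.94-fold (5.97 to 8.07). Its 1236-base flank had 24.8-fold (14.4 to 46.9), and the 763-base flank beyond that 2.86-fold (2.33 to 3.54). At Fam63a the order was turned, with 3.51-fold (2.39 to 5.34) inside and 15.7-fold (7.05 to 43.5) in the 4390-base flank. Among the deepest loci, chosen after their values were seen, the 3063-base flank of Sfi1 held 1313 and 1745 reads, 0.858-fold (0.774 to 0.951), beside 3.94-fold inside. At Gas5 nested pairs also went both ways. A 1457-base entry had 773 and 4848 reads, 4.05-fold (3.63 to 4.51), and the rest of the longest span 1.80-fold (1.64 to 1.98). An 868-base entry had 2.69-fold (2.46 to 2.95) and its flank in an 1890-base entry 4.13-fold (3.53 to 4.86). In the Gas5 pair with the most flank input reads the values were 3.23-fold (2.38 to 4.48) inside and 2.67-fold (2.48 to 2.87) in the flank. Outside nested pairs, the ratio of folds in 1 locus was 5.86 at Fyttd1 (16.8-fold against 2.86-fold) and 5.60 where the spans of Gcdh (3.09-fold) and Klf1 (17.3-fold) overlap.

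**Figure D4:**
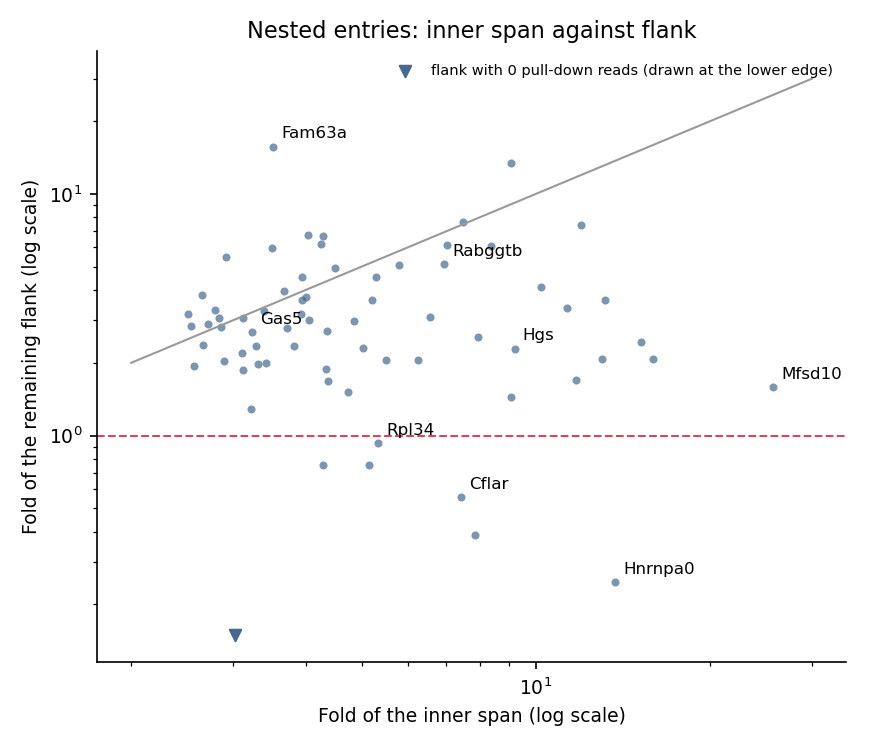
Fold of the inner entry against fold of the remaining flank of the outer entry (both log scales) for 70 loci, 1 point each; the grey line marks equal folds, the dashed line a flank of 1, and the triangle is a flank with 0 pull-down reads drawn at the lower edge. In 53 of 70 loci the point lies below the grey line, with Hnrnpa0 at 13.7 against 0.247 and Fam63a on the other side at 3.51 against 15.7. Flank reads are the outer reads minus the inner reads and can include reads that cross the edge of the inner entry.

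The ChIRP-seq list, which no part of the choice used, holds 4286 peaks. A peak lay within 10 kb of 193 of 1247 members (15.5%, exact binomial 13.5 to 17.6%), against 9.99% of all ncRNA candidates. The share was 12.0% (10.2 to 14.0%) for the 1185 other promoter-associated candidates and 7.55% (6.72 to 8.44%) for the 3776 candidates away from promoters. The members' interval lay above that of the candidates away from promoters and overlapped that of the other promoter-associated ones. Entries that overlap each other share a peak, so these intervals, which treat entries as independent, are too narrow. A peak overlapped the span itself for 75 members (6.01%), 44 other promoter-associated candidates (3.71%) and 59 candidates away from promoters (1.56%).

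The same order of shares was seen within the shorter length bands. Under 1.5 kb the shares were 18.4% for members, 13.6% for the other promoter-associated candidates and 7.93% for those away from promoters, and from 1.5 to 5 kb they were 17.1%, 11.9% and 7.01%. Over 5 kb they were 12.0%, 8.75% and 8.42%, and all 3 intervals overlapped. Shares differed more by chromosome: on chromosomes 6, 8, 11, 16 and 19, which are rich in peaks, 123 of 345 members (35.7%) had a peak within 10 kb, against 70 of 902 (7.76%) elsewhere. The other promoter-associated candidates had 27.5% and 7.42%, and those away from promoters 17.3% and 4.26%. The part of these chromosomes in the members' share was not tested beyond these values, and the ChIRP-seq input library was not analysed here. Among members the median fold was 3.67 for the 193 with a peak within 10 kb, 3.77 for the 1054 without, and 4.105 for the 75 whose span overlaps a peak.

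**Figure D5:**
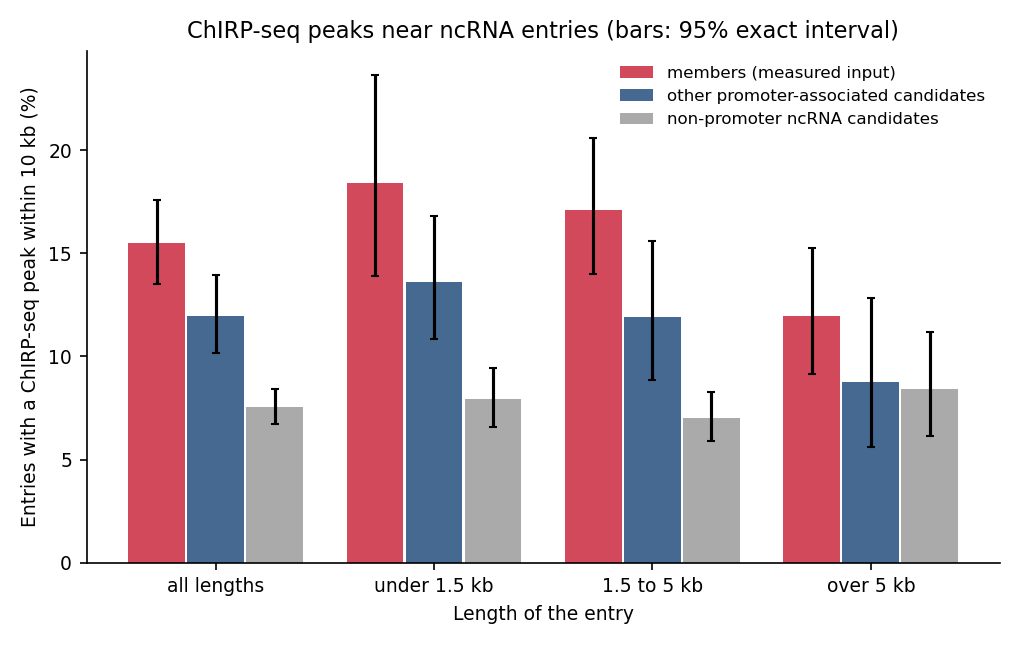
Share of entries with a ChIRP-seq peak within 10 kb, in percent from 0, for members, other promoter-associated candidates and candidates away from promoters, over all lengths and in 3 length bands; bars on the columns are 95% exact binomial intervals. Members stand at 15.5% over all lengths, beside 12.0% and 7.55%.

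At 34 of the 860 genes (3.95%, 2.75 to 5.48%) the authors' annotation places a ChIRP-seq peak at the promoter of the same gene, against 3.14% of all 1624 promoter-associated genes. For the 764 genes with no member it was 2.23% (1.30 to 3.54%), an interval that overlaps the members'. At 21 of the 34 genes the nearest member entry overlaps that peak, and at all 34 the nearest entry lies within 2317 bases of it. Other entries of a gene can lie further away. The 43 entries at these genes had a median fold of 3.69, near that of all members. Peak scores, which are the authors' own, ran from 30.6 to 130.23.

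The peak with the highest score, 130.23, lies 3 bases from the TSS of Nfkb2, which encodes the p100 precursor of an NF-kappaB subunit. Its 3 entries rose from 4.001 to 15.727, from 4.025 to 15.821 and from 2.433 to 12.672 RPKM, which is 3.93-fold (2.80 to 5.68) for the overlapping long ones and 5.21-fold (2.35 to 11.9) for the 638-base one. At Mafg, a small Maf transcription factor, the peak scored 96.91 and the entry had 4.25-fold (2.67 to 6.76). Pradc1 (score 68.3) had 3.09-fold, Sf3b2, a splicing factor subunit (54.1), 2.53-fold, and Cnnm2, linked to magnesium transport (50.3), 3.84-fold (3.32 to 4.45). At Kctd7 the peak lies 3 bases from the TSS and the entry rose from 0.638 to 5.990 RPKM, 9.39-fold (4.98 to 20.1). The genes of this group with an entry at 10-fold or more were Klf1, an erythroid transcription factor (17.3-fold, 8.07 to 38.1), Eaf2, an ELL-associated elongation factor (13.1-fold, 6.52 to 31.0), the histone H3.3 gene H3f3b (12.9-fold, 5.76 to 35.9) and Tmem11 (12.3-fold, 5.08 to 38.6). The Eaf2 entry at 13.1-fold lies 43083 bases from the peak, and the other Eaf2 entries, at 4.31-fold and 3.19-fold, overlap it.

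The promoters of Kctd7 and Nfkb2 are shown because a peak lies within 3 bases of their TSS, a choice made after these values were seen. They are the 250 bases before the start from RefSeq (GRCm38.p6), on the gene's strand, with CpG pairs in capitals. Kctd7 lies at chr5:130144633-130144882 and Nfkb2 at chr19:46304487-46304736.
Kctd7: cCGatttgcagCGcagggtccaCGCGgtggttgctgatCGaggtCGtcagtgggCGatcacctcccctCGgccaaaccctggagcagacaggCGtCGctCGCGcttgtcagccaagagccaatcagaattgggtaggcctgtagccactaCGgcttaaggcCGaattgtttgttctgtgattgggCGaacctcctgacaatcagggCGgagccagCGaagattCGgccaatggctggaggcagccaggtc
Nfkb2: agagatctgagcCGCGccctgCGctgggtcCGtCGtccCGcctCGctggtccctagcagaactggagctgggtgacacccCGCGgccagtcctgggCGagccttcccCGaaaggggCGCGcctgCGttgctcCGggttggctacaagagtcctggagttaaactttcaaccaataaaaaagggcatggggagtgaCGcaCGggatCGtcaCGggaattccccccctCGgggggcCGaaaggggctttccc
Kctd7 holds 18 CpG pairs at 60.4% GC and the Nfkb2 promoter shown 21 at 64.8%. RefSeq gives Nfkb2 further starts, and which of them the deposited mm9 peak annotation used is not known from the sources used here.

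At 80 of the 860 genes (9.30%) the gene also stands in the authors' list of captured messenger RNAs, against 8.74% of all promoter-associated genes. The spans of messenger RNA and ncRNA overlap at 67 of them, and 146 members overlap some listed messenger RNA. The counting strand is not given in the sources used here, so reads of an ncRNA and of an overlapping gene cannot be told apart. For each gene the ncRNA entry with the highest lower bound was taken, so other entries of the gene can be lower. At Mat2a this entry had 15.6-fold and the messenger RNA 4.91-fold (30.070 to 147.655 RPKM), while entries of Mat2a went down to 8.15-fold. At Rabggtb the values were 8.08-fold and 9.89-fold, with entries down to 6.22-fold. At Nhp2 they were 10.1-fold and 9.57-fold. At Sfi1 they were 3.94-fold and 3.55-fold, and the other Sfi1 entry had 3.53-fold. At Ldha, lactate dehydrogenase A, the order was the other way, 2.54-fold (2.22 to 2.92) for the ncRNA entry and 14.2-fold for the messenger RNA (24.790 to 351.283 RPKM). Both kinds of value come from the same 2 libraries.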

How the data were processed

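Coordinates are those of mm9, and FastQC, Trimmomatic, Bowtie2, SAMtools, Picard 1.119, HOMER, bedtools 2.15 and MACS are named for these libraries per the submitters' processing notes. Input and pull-down RPKM values are as the authors deposited them, and the fold is their ratio as recomputed here, which differed from the deposited fold by at most 0.005. Peak scores and distances to the nearest start are also as deposited by the authors. Counting settings, strand and treatment of reads with several matches are not given in the sources used here.

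Entries of the promoter-associated list were joined by NONCODE name to the ncRNA list for coordinates and length. One read is worth the same RPKM times length in a library, which gave an input denominator of 9.66 M reads. That of the pull-down was 14.97 M reads. Exact (Clopper-Pearson) 95% intervals of the fold come from the conditional binomial of read pairs, and those of shares from the binomial. Each group has 1 library, so no test between groups was run. The read recovery was tried on simulated data with even read numbers only, unlike the recovered ones, so that trial does not settle the denominators. Symbols were matched to RefSeq for all but 1 of 860 genes, 801 by symbol and 58 by accession.

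Members, lists and tests were chosen with earlier results of these data known. Named are the 10 entries highest in fold, in input reads and in lower bound, genes with a promoter peak, list members, genes with 3 or more entries, and 3 entries on each side of the threshold. Seed matches were to be counted over all member genes; because of the promoter coverage they are given for protein-coding genes. Alternatives were the input threshold, 1 entry per gene, rounding of RPKM, single reads, peak distance and score, and the motif's length and strand. Python 3.11.15, pandas 2.3.3, numpy 2.4.6, scipy 1.17.1 and matplotlib 3.10.9 were used.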

Additional observations from a re-analysis of the deposited data

How the results depend on the processing

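With an input threshold of 2 the median member fold was 3.50 and 4.32% of members reached 10-fold, and with a threshold of 0.5 the values were 4.06 and 13.0%, in place of 3.75 and 8.10%. With reads counted singly instead of as pairs, 61.0% of intervals lay above 2.5 in place of 46.9%. The share of members near a ChIRP-seq peak (15.5% within 10 kb) was 8.02% within 1 kb, 9.22% for peaks with a score above the list's median and 7.76% outside chromosomes 6, 8, 11, 16 and 19. The share of promoters with a seed match (3.14%) was 1.82% on the coding strand only and 9.90% for the 6 bases 2 to 7. Narrower distances, higher scores and fewer strands leave fewer peaks or letters to count, and shorter motifs leave more. With the nested pair of fewest flank input reads in each locus, the flank was higher with intervals apart in 4 loci in place of 1. Taking 1 entry per gene or the lowest fold that the rounding of RPKM allows moved no value beyond its interval. The thresholds for promoter peaks and messenger RNA genes, and the seed share over all member genes with a promoter (3.12%), were added after the data were seen and stayed within the intervals. No paired analysis was possible because each group has 1 library, and for the same reason no library could be left out. With 10 to 20 input reads an interval spans several fold, so the order of the highest folds is not resolved at this depth.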
